A study of Mus musculus with 78 samples.

Results

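The transcriptome of single blastomeres of mouse 8-cell embryos was described from 20 of the 26 columns of an expression table. Each column held 1 blastomere, and a column was kept where at least 5500 genes had a value above 1 FPKM, a fragment count scaled to transcript length and to library depth. The series has 78 samples, of which 31 are labelled as 8-cell blastomeres, from 4 embryos of 7 or 8 cells each. The embryos came from a cross between mice with the CAG-Brainbow2.1 allele at the Gt(ROSA)26Sor locus and mice with the Tg(CAG-cre/Esr1*)5Amc transgene, so every blastomere carried 1 copy of the Brainbow fluorescent reporter and 1 copy of a Cre recombinase that tamoxifen activates, both driven by the ubiquitous CAG promoter. Embryos were taken at the 2-cell stage, 46 hours post injection, exposed briefly in vitro to 4-Hydroxytamoxifen, which all blastomeres therefore share, and grown in KSOM medium before single cells were lysed for Smart-seq2, a full-length RNA sequencing method. The labels divide the 8-cell samples into lineage A (13 samples), lineage B (13 samples) and NA (5 samples), but the column names of the table did not identify labelled samples. The blastomeres were therefore treated as 1 set, and neither embryo nor lineage was assigned to any of them.

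At the 8-cell stage the embryo runs on RNA from its own genome, most maternal RNA having been cleared, and its blastomeres flatten against each other and polarise in the process called compaction. The outer cells will form trophectoderm, the epithelium that makes the placenta, and the inner cells will form the inner cell mass. The cells of an embryo share their sex, and from compaction onwards they begin to differ in shape and position.

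The number of genes above 1 FPKM ranged from 5884 to 8078 among the 20 blastomeres, with a median of 6844.5. The last blastomere inside the threshold had 5884 such genes and the first outside had 5391, and the 6 left out ranged from 3548 to 5391. The fragment total behind the FPKM values, recovered from their smallest steps, ran from 14449383 to 21738141 per kept blastomere. All 15 listed markers of preimplantation blastomeres were above 1 FPKM in at least 1 cell. Their summed level lay between 3562 and 4656 FPKM, with a median of 4096 FPKM. Most of that sum came from Dppa3, with a median of 3186 FPKM. Of 7 cumulus and granulosa cell markers listed, 5 passed 1 FPKM in some cell and summed to 7.84 to 111 FPKM (median 44.5). Most of that came from Amhr2 in all 20 blastomeres, while Vcan was at 0 throughout. Markers of oviduct epithelium, blood and sperm reached at most 31.8, 14.7 and 10.3 FPKM in sum, each with a median of 0. Over the 7595 genes with a mean log2(FPKM + 1) of at least 1, the correlation between 2 blastomeres ranged from 0.637 to 0.842 in 190 pairs, with a median of 0.710.

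Detection was uneven across the genome. Of 15342 genes listed, 2927 were above 1 FPKM in every kept blastomere, 8087 in 2 to 19 of them, 1830 in exactly 1, and 2498 in none. The median level was above 100 FPKM for 935 genes and above 1000 FPKM for 26.

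The most abundant transcripts combined genes known from oocytes, early embryos and pluripotent cells with housekeeping machinery. Whether their RNA was maternal or made by the embryo was not measured. The 30 genes of highest median made up 9.94% of the summed FPKM of a blastomere at the median, between 8.66% and 10.7% across cells. The leading 500 genes made up 50.1% (47.1% to 52.9%).

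Dppa3, the oocyte-derived protein also called Stella that shields the maternal genome from demethylation, stood first with 2474 FPKM in the lowest, 3186 FPKM in the median and 3693 FPKM in the highest blastomere. No other transcript had a median as high. Fbxo15, an F-box gene known as a target of the pluripotency factor OCT4, ranged from 1237 to 2117 FPKM around a median of 1572 FPKM. Obox6, an oocyte-specific homeobox family gene, lay between 1104 and 1991 FPKM with a median of 1440 FPKM. The other 5 Obox genes listed had a median of 0, and 1 of them, Obox5, passed 1 FPKM in 2 blastomeres with at most 10.99 FPKM. Trim43a, a tripartite motif gene of the preimplantation embryo, ran from 754 to 1709 FPKM (median 1427). Its relative Trim43b followed it across the blastomeres (r = 0.71, n = 20), and another relative, Trim43c, did so less (r = 0.32). Dppa5a, an RNA-binding protein of pluripotent cells, had a median of 1023 FPKM, between 648 and 1479 FPKM.

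Chaperones formed another block at the top. Hspa8, the constitutive HSP70 that folds newly made proteins, held the second rank with 1091 to 2591 FPKM and a median of 2195 FPKM. Stip1, which hands clients from HSP70 to HSP90, ranged from 668 to 1996 FPKM with a median of 1250 FPKM. Hsp90ab1, the constitutive HSP90, had nearly the same median of 1249 FPKM but a narrower range, from 1058 to 1622 FPKM. Of the 24 heat shock chaperone genes listed, 18 were above 1 FPKM in every blastomere, together 2.24% of the summed FPKM (1.87% to 2.54%). The stress-inducible Hspa1a and Hspa1b were at a median of 0, with highest values of 3.95 and 3.10 FPKM.

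Protein synthesis held the largest share of any functional list examined. Of 89 cytoplasmic ribosomal protein genes, 83 were above 1 FPKM in every blastomere, and the list held 9.48% of the summed FPKM at the median, between 7.21% and 11.3%. Rpl41, which encodes the smallest ribosomal protein, led it with 1259 to 2427 FPKM and a median of 1932 FPKM. Rpl4, Rplp0 and Rpl7 also stood among the 30 most abundant transcripts, with medians of 1195, 1178 and 1130 FPKM. Translation factors added 3.44% (3.05% to 3.80%), among them the elongation factor Eef1a1 at a median of 978 FPKM and Eif5a, the hypusine-carrying factor that relieves stalled ribosomes, at 945 FPKM. Npm1, a nucleolar protein of ribosome assembly, reached 1491 FPKM (1144 to 1825).

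Metabolic genes among the leading 30 belonged to nucleotide, 1-carbon, polyamine and inositol pathways. Prps1 makes the phosphoribosyl donor of nucleotide synthesis and had a median of 1232 FPKM (857 to 1952), and Hprt, which salvages purines with that donor, had 1224 FPKM (873 to 1515). Gcsh, the carrier protein of the glycine cleavage system, had 1127 FPKM (954 to 1608). Bhmt, which remethylates homocysteine to methionine with betaine, had 940 FPKM (504 to 1331). Sat1, the enzyme that starts polyamine breakdown, reached 1286 FPKM, and Isyna1, the first enzyme of inositol synthesis, 1136 FPKM. Alppl2, an alkaline phosphatase of early embryos, followed with 1156 FPKM.

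The remaining transcripts of the leading 30 with known roles were the mitotic cyclin Ccnb1 (median 1091 FPKM, 851 to 1315), the autophagosome protein Map1lc3b (1273 FPKM, 1000 to 1607), the nucleic acid-binding protein Cnbp (1131 FPKM), the ferritin receptor Timd2 (1003 FPKM) and the chromatin-associated acidic protein Ptma (956 FPKM). A transcribed pseudogene, Gm11517, reached 1579 FPKM. An entry listed by the Entrez number 100861531, which had no match in RefSeq, reached 2069 FPKM. Reads can be divided wrongly between a pseudogene and related genes, which was not tested, and the Entrez entry has no annotation here. Those last 2 levels are therefore uncertain.

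**Figure D1:**
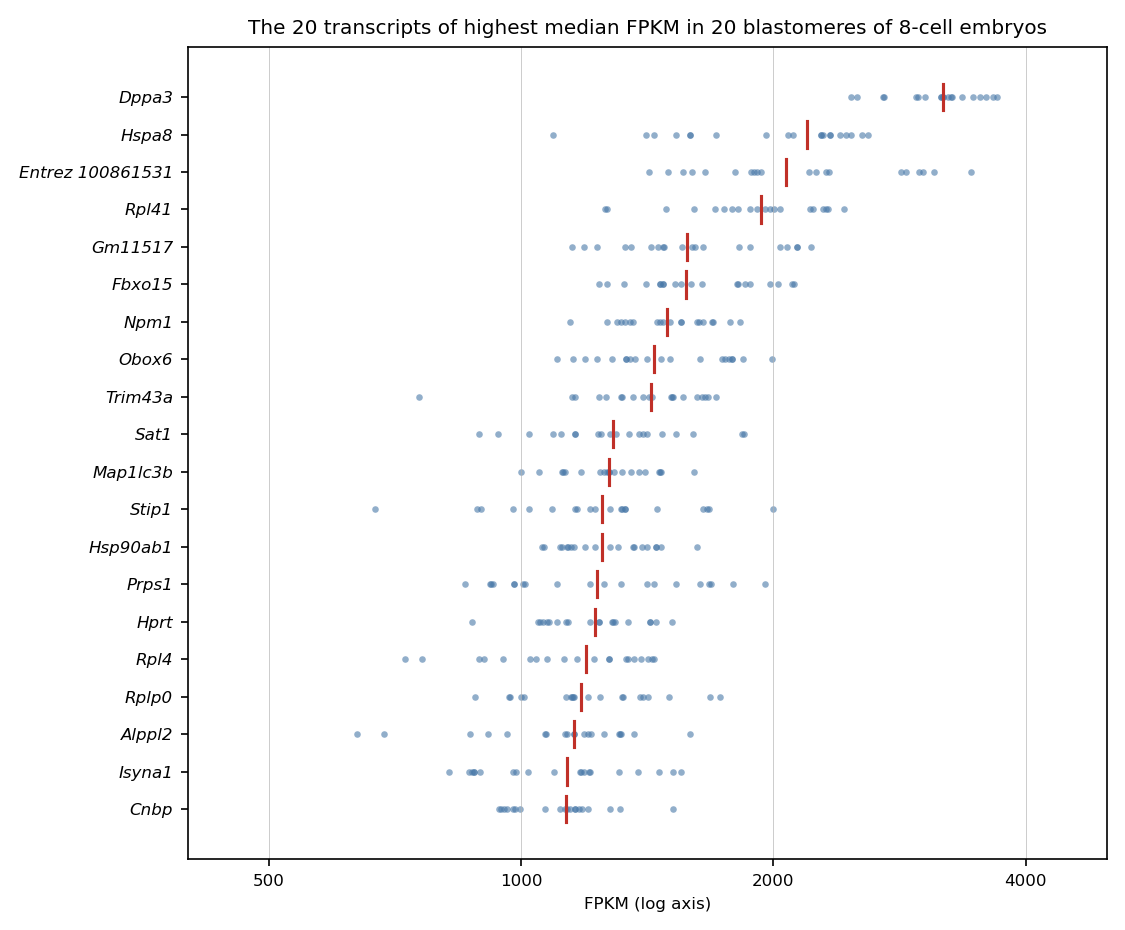
FPKM on a log axis for the 20 transcripts of highest median. Each point is 1 of 20 blastomeres and the bar marks the median, and the median of Dppa3 (3186 FPKM) is the highest, although the points of Hspa8 and of the unnamed entry overlap its range of 2474 to 3693 FPKM.

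Of 24 genes for pyruvate, lactate and glucose use, 8 were above 1 FPKM in every blastomere. The pyruvate dehydrogenase subunits Pdhb and Pdha1 had medians of 275 and 175 FPKM and were above 100 FPKM in all 20 blastomeres. Mdh2, the mitochondrial malate dehydrogenase, had 605 FPKM (403 to 803). The glycolytic genes Gapdh, Pkm and Pgk1 had 51.5, 22.5 and 7.30 FPKM, Hk2, a hexokinase, 1.596 FPKM, and Aldoa, an aldolase, 217 FPKM. Gapdh and other glycolytic genes have processed copies in the genome, and only uniquely aligned reads were kept, so their levels are uncertain. The nuclear-encoded respiratory chain and ATP synthase list held 2.92% of the summed FPKM (2.14% to 3.51%), with 79 of its 94 genes above 1 FPKM in every blastomere.

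Cell cycle genes were present throughout. Besides Ccnb1, the anaphase-promoting complex activator Cdc20 had a median of 605 FPKM (458 to 1044), the ubiquitin-conjugating enzyme Ube2c 477 FPKM (291 to 729) and the mitotic kinase Aurka 321 FPKM (203 to 454). Of 31 mitosis genes, 23 were above 1 FPKM in all 20 blastomeres, as were 18 of 22 DNA replication genes, among them Rrm2, a ribonucleotide reductase subunit, at 455 FPKM. Among the D-type cyclins of the G1 phase, Ccnd1 and Ccnd3 had medians of 19.34 and 19.02 FPKM, and Ccnd2 passed 1 FPKM in 1 blastomere.

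Pluripotency factors were detected widely and trophectoderm factors in part. Of 19 pluripotency genes, 13 were above 1 FPKM in every blastomere, and the list held 0.87% of the summed FPKM (0.71% to 0.98%). Dppa2 and Dppa4, a pair of chromatin proteins that act together in pluripotent cells, had medians of 471 FPKM (410 to 812) and 414 FPKM (291 to 484). Sox15, an HMG-box factor related to Sox2, had 403 FPKM (280 to 620), and Tdgf1, the Nodal co-receptor Cripto, 399 FPKM (175 to 636). Pou5f1, which encodes OCT4, ranged from 27.8 to 178 FPKM around a median of 124 FPKM. Nanog, a homeobox factor of the inner cell mass, ran from 0 to 71.8 FPKM with a median of 7.93 FPKM and passed 1 FPKM in 18 blastomeres. Klf5, a zinc finger factor active in both the trophectoderm and the inner cell mass, ranged from 37.8 to 341 FPKM with a median of 96.4 FPKM.

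Among trophectoderm factors, Tead4, the DNA-binding partner of the Hippo effector YAP, ranged from 24.7 to 158 FPKM (median 69.0), and Tfap2c, an AP-2 factor, from 21.7 to 115 FPKM (median 63.2). Hand1, a basic helix-loop-helix factor of trophoblast, had 1.53 to 160 FPKM (median 54.7). These 3 were above 1 FPKM in all 20 blastomeres. Cdx2, the homeobox factor of trophectoderm, passed 1 FPKM in 3 blastomeres with at most 14.98 FPKM, Gata3 in 10 with at most 27.9 FPKM, and Eomes in 1 with 5.59 FPKM. Of the primitive endoderm factors, Gata6 was above 1 FPKM in all (4.82 to 77.8, median 20.7), Gata4 in 15 (at most 52.9) and Pdgfra in 3 (at most 6.13). Fgf4, the growth factor of the inner cell mass, passed 1 FPKM in 7 blastomeres with at most 27.3 FPKM.

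**Figure D2:**
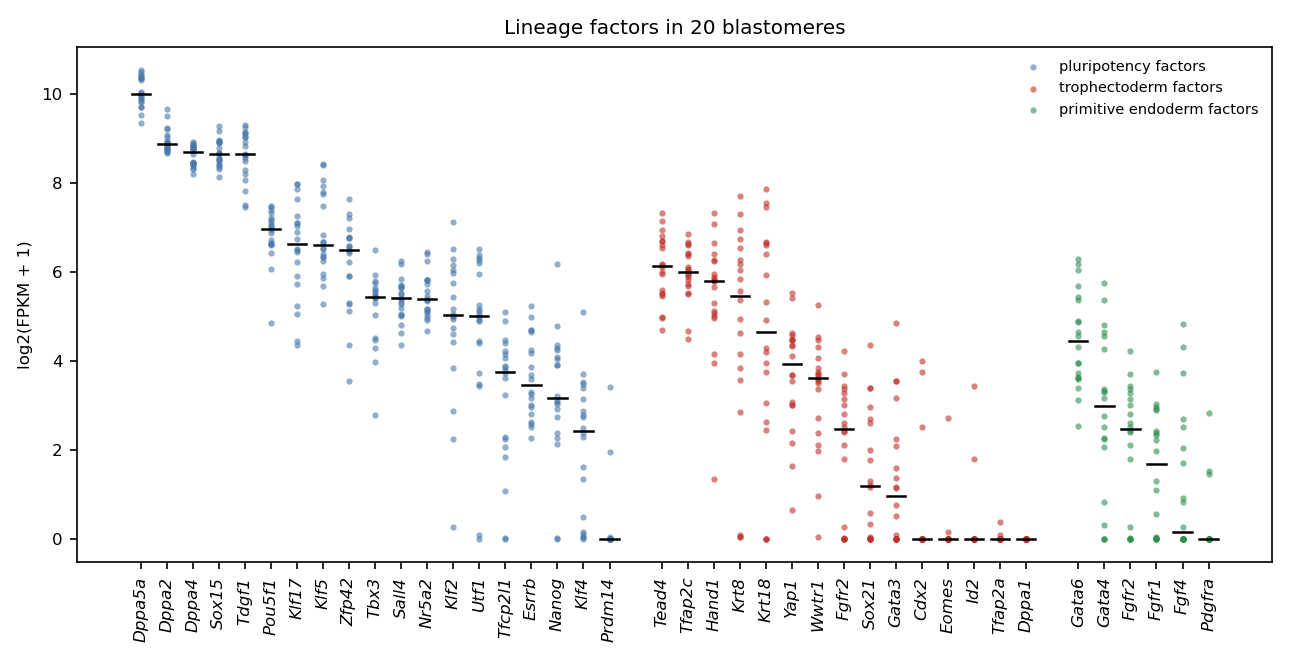
log2(FPKM + 1) of pluripotency, trophectoderm and primitive endoderm factors, each point being 1 of 20 blastomeres and the black bar the median. Dppa2, Dppa4 and Sox15 form tight columns, Pou5f1 spans 27.8 to 178 FPKM, and Cdx2 lies at or below 1 FPKM in all but 3 blastomeres.

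Adhesion and maternal genes completed the picture. The tight junction proteins Cldn4 and Cldn7 had medians of 204 FPKM (45.1 to 527) and 125 FPKM (45.4 to 231), whereas Cdh1, the E-cadherin through which blastomeres compact, had 7.90 FPKM (0.52 to 28.7). Of 28 genes of the subcortical maternal complex and other oocyte factors, 4 were above 1 FPKM in every blastomere: Dppa3, Khdc3, Zp3 and Padi6. Many others were near 0, such as the oocyte growth factors Gdf9 and Bmp15, with medians of 0.016 and 0. A list of 22 genes was drawn up for the 2-cell burst of transcription. It took in every gene whose name begins with Eif1a, so Eif1ax and Eif1ad entered by name only. Eif1a, Eif1ax, Eif1ad and Sp110 were above 1 FPKM in every blastomere at medians of 56.2 to 167 FPKM. None of the 5 Zscan4 genes listed passed 1 FPKM in more than 3 blastomeres.

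The most even genes were defined as those above 1 FPKM in every blastomere with the lowest coefficient of variation, the SD divided by the mean. Over the 2927 eligible genes the coefficient of variation had a median of 41.9%, from 10.1% to 125%, and 5% of them lay below 19.8%. It fell with level, from a median of 59.8% for genes with a median of 1 to 10 FPKM to 18.2% for those above 1000 FPKM. The variation that counting alone would give was much smaller, 3.76% and 0.50% in the same classes. That floor covers counting error only, since reads amplified from a few molecules are not independent.

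The 30 most even genes had coefficients of variation of 10.1% to 14.8%, and their highest value was 1.45 to 1.82 times their lowest. Ptma, the acidic chromatin protein, led with 768 FPKM in the lowest, 956 FPKM in the median and 1122 FPKM in the highest blastomere and a coefficient of variation of 10.1%. Ubxn1, an adaptor of the p97 segregase, followed with 526, 711 and 829 FPKM (11.1%), and Dppa3, the most abundant transcript, came next with 11.2%. Ranbp1, a regulator of the RAN cycle of nuclear transport, ranged from 425 to 620 FPKM (11.9%). Sugt1, an HSP90 co-chaperone needed at kinetochores, ranged from 476 to 761 FPKM (12.04%).

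The 30 most even genes can be described by role. Translation and ribosome assembly were represented by Npm1 (12.3%), Eif5a (13.01%), Fau (13.1%), Eif4a1 (13.2%), Rps4x (13.5%), Rpl21 (13.9%), Rpl5 (14.2%) and Eif6 (14.6%). Protein turnover was represented by Adrm1, the ubiquitin receptor of the proteasome (12.4%), by its subunits Psmd11 (13.2%) and Psma6 (14.7%), and by the polyubiquitin gene Ubb (13.6%). Folding was represented by Hsp90ab1 (12.6%) and Cct7, a subunit of the TRiC chaperonin (13.1%). Ccnb1, whose protein rises and falls in every division, had a coefficient of variation of 12.2% at the RNA level. Hprt, a common reference gene, had 13.7%. Over all 26 columns, the coefficient of variation was 37.4% for Hprt, 33.3% for Ranbp1 and 39.9% for Dppa3, so their evenness held for the 20 kept blastomeres. Ubb was the least abundant of the 30 with a median of 84.6 FPKM (62.6 to 108). Of the 30 most abundant transcripts, 11 were also among the 30 most even. The summed FPKM itself ranged from 364937 to 463052 among the 20 blastomeres. With FPKM rescaled to the same sum, 22 of the 30 stayed among the 30 most even. The coefficient of variation was then 8.16% for Ptma, 10.1% for Ccnb1, 12.6% for Dppa3, 13.1% for Hprt and 14.5% for Ranbp1. The order within the 30 therefore depends on scaling.

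Whole lists were set against the same ranking. Among the 300 most even genes, 10.2% of the 2927, were 40 of the 83 ribosomal protein genes that were eligible (48.2%), 10 of 18 chaperones (55.6%), 24 of 54 translation factors (44.4%) and 22 of 64 proteasome and ubiquitin genes (34.4%). The respiratory chain list stood closer to the whole, with 11 of 79 (13.9%), and 3 of 23 mitosis genes (13.04%) were there. Of 13 pluripotency genes, 4 were included, among them Dppa4 with a coefficient of variation of 15.5%. These lists differ in level from the other genes, and evenness rose with level. Against the trend of variance over level, described with the uneven genes, 41 of 81 ribosomal protein genes (50.6%) and 9 of 19 chaperones (47.4%) lay above it where the trend was above 0, compared with 47.0% of 7568 such genes. Other lists were counted over every gene with a trend value, of which 47.2% lay above it. Fewer did so among translation factors (16 of 62, 25.8%) and proteasome and ubiquitin genes (25 of 82, 30.5%). The respiratory chain list had 33 of 91 (36.3%) and pluripotency genes 8 of 18 (44.4%).

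Ribosomal protein genes moved together over the 20 blastomeres. The median correlation between 2 of the 83 genes across the 20 blastomeres was 0.70, compared with 0.01 for all pairs of the 2927 genes. Rpl4 and Rplp0 had r = 0.74. Chaperones and respiratory chain genes had median correlations of 0.30 each, and translation factors 0.10. The respiratory share of the summed FPKM rose with the number of genes detected in a blastomere (r = 0.65), the ribosomal share less so (r = 0.41), and the pluripotency share ran the other way (r = -0.76). These correlations were not taken within the sets of blastomeres with Y-linked transcripts or with Xist, described below. The part that a difference between those sets has in them was not tested. These points share embryos and a library preparation, and the values describe these 20 blastomeres only.

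Unevenness was measured against level. A smooth trend (lowess) was drawn through the variance of log2(FPKM + 1) over the mean for 7595 genes, and the excess was the variance minus that trend. The median variance was 2.58 for genes with a mean log2 of 2 to 3. The trend fell to 0 or below for 27 genes with a mean log2 of about 10 or more, where every gene lies above it by construction. Of the 30 most even genes, 9 were among those 27, and 3 of the other 21 lay above the trend.

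**Figure D3:**
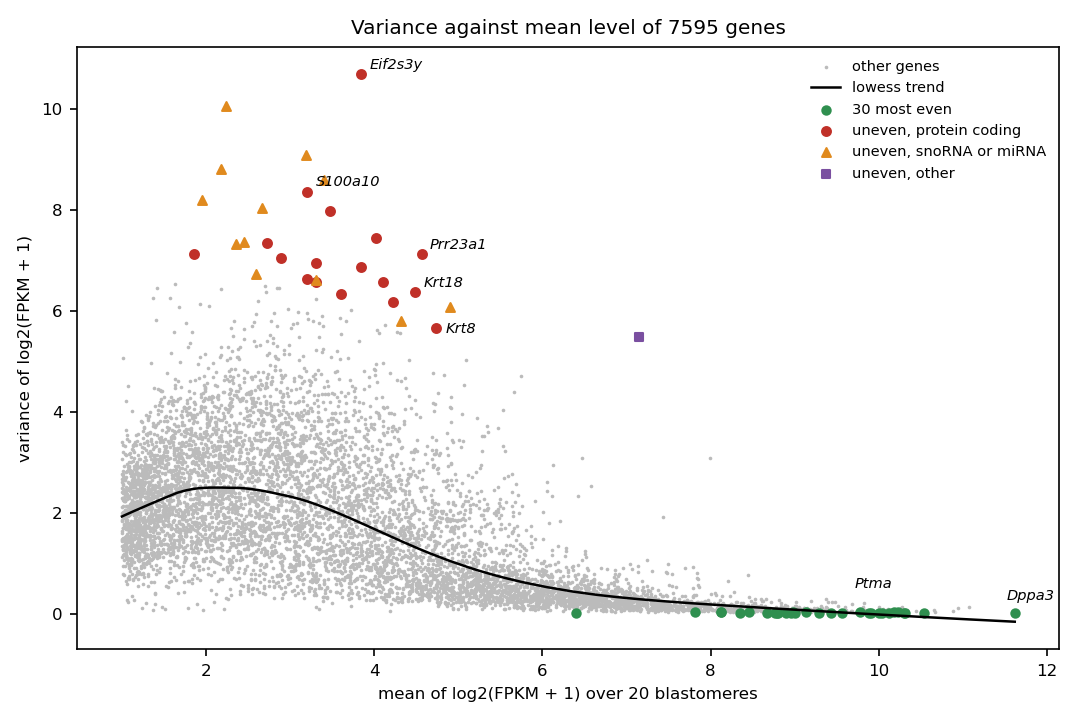
Variance of log2(FPKM + 1) over 20 blastomeres against its mean for 7595 genes (grey), with the lowess trend in black. The 30 most even genes (green) lie at the right along the base, and the 30 most uneven lie above the trend by 4.26 (Mir3064) to 8.89 (Eif2s3y) log2 units squared.

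The 30 most uneven genes had an excess variance of 4.26 to 8.89, and the next gene outside, Rhox9, had 4.21. They comprised 17 protein-coding genes, 8 small nucleolar RNA genes, 4 microRNA genes and a transcribed pseudogene. That composition depends on the settings. A pseudocount of 0.1 or a mean log2 of at least 3 left far fewer short RNA genes, as given with the processing below. Of the 30, 29 were at 0 in at least 1 blastomere and above 50 FPKM in another (96.7%), a pattern found in 10.2% of the 7595 genes. This is a property of the selection by variance and is given to show what the selection took. A value of 0 bounds the level closely for a gene of ordinary length: a count of 0 allows up to 3 fragments, which is 0.087 FPKM or 0.124 FPKM at the median depth for Elf3 and Krt18. Loss of molecules before amplification is not covered by that bound and was not tested.

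Y-linked Eif2s3y, the copy of a translation initiation subunit, had the largest excess. It was at 0 in 8 blastomeres and between 31.1 and 153 FPKM in the other 12. The other 2 Y-linked genes with a trend value, Uba1y, a ubiquitin-activating enzyme, and Ddx3y, an RNA helicase, were also among the 150 most uneven, at most 75.8 and 51.9 FPKM.

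Epithelial genes were among the protein-coding ones. Krt18 ranged from 0 to 233 FPKM with a median of 23.98 FPKM and was above 1 FPKM in 17 blastomeres. Krt8, whose protein pairs with keratin 18 in the first intermediate filaments of the embryo, ranged from 0.028 to 209 FPKM with a median of 43.3 FPKM, also in 17. Both were above 1 FPKM in 15 of the same blastomeres, and their correlation was modest (r = 0.38). By excess variance Krt8 ranked 24 and Krt18 14. With single blastomeres left out, Krt8 ranked 18 to 55 and Krt18 10 to 30, so Krt8 was outside the first 30 in some of those runs. Elf3, an epithelial ETS factor, ranged from 0 to 174 FPKM (median 15.1) and passed 1 FPKM in 13 blastomeres. Cldn6, a claudin of embryonic epithelia, ranged from 0 to 179 FPKM (median 15.5), likewise in 13. Of 9 keratin and tight junction genes with a trend value, 4 were among the 300 most uneven (44.4%), a set that makes up 3.95% of the 7595: Krt8, Krt18, Cldn6 and Ocln, which encodes occludin. The share of summed FPKM in this list differed 4.58-fold between the lowest and the highest blastomere, from 0.067% to 0.306%.

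Among membrane and calcium-binding genes, S100a10 and Anxa2 encode the subunits of a membrane-bound complex, and S100a10 ranged from 0 to 90.3 FPKM (median 25.5) while Anxa2 ranged from 0 to 233 FPKM (median 10.2), each above 1 FPKM in 12 blastomeres. Their correlation was 0.51, and 9 blastomeres had both. Fxyd4, a regulator of the sodium pump that later fills the blastocoel, ranged from 0 to 77.6 FPKM (median 25.1) and passed 1 FPKM in 14. Calm5, a calmodulin-like gene, was above 1 FPKM in 7 and reached 120 FPKM.

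Metabolic genes were also present. Ldha, a lactate dehydrogenase subunit, ranged from 0 to 93.2 FPKM (median 32.9). Ldhb, the other subunit, which is outside the first 30 at rank 84, ranged from 0 to 108 FPKM (median 26.6). Each passed 1 FPKM in 15 blastomeres, and 12 had both. Idh2, the mitochondrial NADP-dependent isocitrate dehydrogenase, ranged from 0 to 137 FPKM (median 20.4). Qdpr, which regenerates tetrahydrobiopterin, ranged from 0 to 112 FPKM (median 8.44), and Slc19a3, a thiamine transporter, from 0 to 132 FPKM (median 28.2). Mdh2, Pdhb and Pdha1 had coefficients of variation of 19.9%, 18.6% and 25.2%. Their medians were higher and variation fell with level, so this is no contrast at a given level. Against the trend, 14 of 21 genes for pyruvate, lactate and glucose use lay above it (66.7%), compared with 47.2% of all genes. That share is not particular to them. It was also 66.7% for p53 targets and for imprinted genes, and 73.7% for the maternal complex and oocyte factors. The lists given with the even genes lay lower.

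Other uneven genes were Nupr1, a stress-responsive chromatin protein (0 to 303 FPKM, median 15.3), the testis-type tubulin Tuba3a (0 to 156 FPKM, median 13.6), Prr23a1, of unknown role (0 to 289 FPKM, median 48.9), and Dynap, a membrane protein named for its interaction with dynactin (0 to 82.2 FPKM, median 20.7). Nupr1 lay between 43.5 and 303 FPKM in the 5 columns named NA and between 0 and 133 FPKM in the other 15. Without those 5 columns its rank by excess variance fell from 9 to 506. Just below the first 30 were Phlda2, an imprinted gene that limits placental growth (0 to 177 FPKM, above 1 in 15), and H2-K1, a class I histocompatibility gene (0 to 161 FPKM, above 1 in 16).

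**Figure D4:**
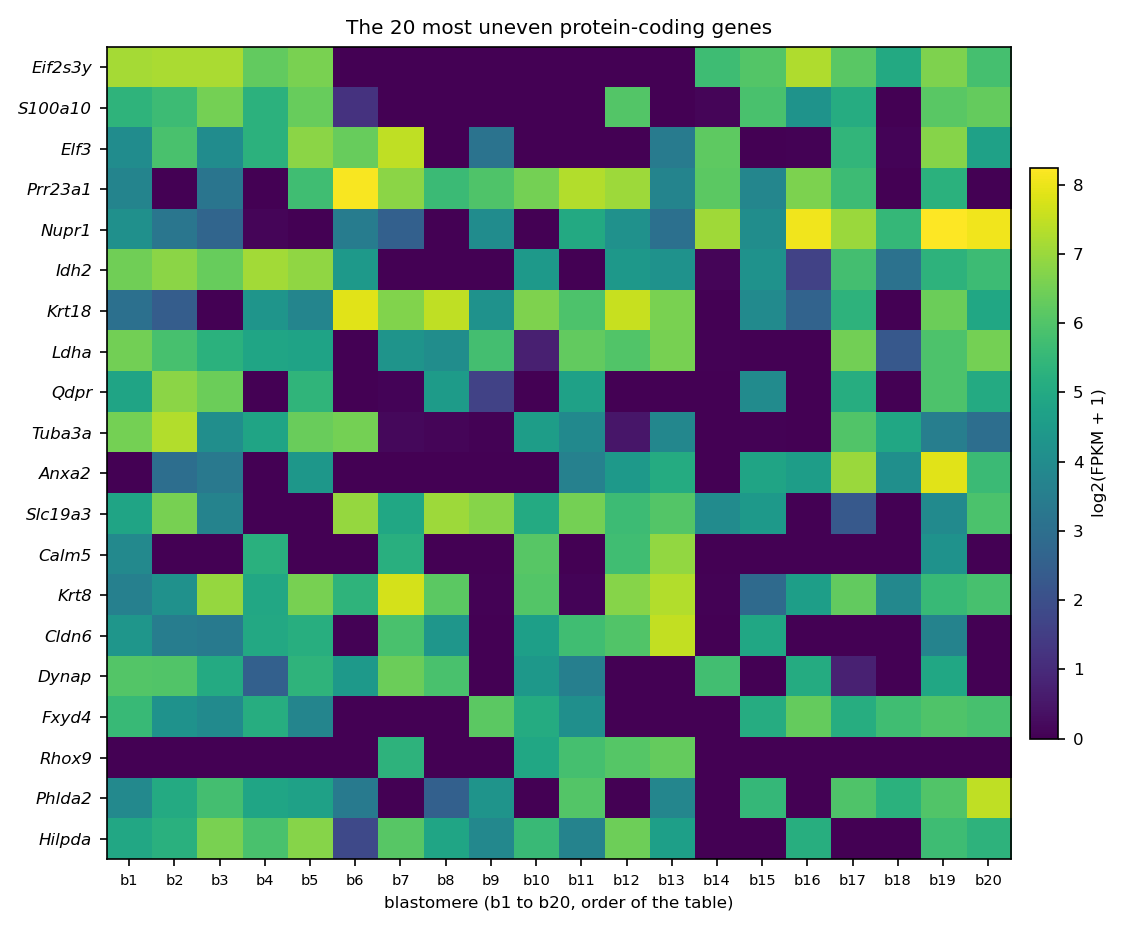
log2(FPKM + 1) of the 20 most uneven protein-coding genes, 1 row per gene and 1 column per blastomere in the order of the table. Dark cells are values at or near 0, and Eif2s3y, in the first row, is at 0 in 8 blastomeres and between 31.1 and 153 FPKM in the other 12.

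Promoter sequence was set beside evenness, since housekeeping promoters are known to be rich in CpG and many regulated ones hold a TATA box. The 60 bases upstream of a RefSeq transcript start (GRCm38.p6) are shown for 3 of the most even genes and 6 uneven ones. For Phlda2 and Eif2s3y that start lies inside the annotated gene, so it belongs to a transcript other than the outermost. The windows are read 5′ to 3′ on the gene's strand with each CG in capitals.
Ptma (chr1:86526497-86526556, plus strand): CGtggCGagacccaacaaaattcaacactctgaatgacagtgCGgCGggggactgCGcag
Ubxn1 (chr19:8871488-8871547, plus strand): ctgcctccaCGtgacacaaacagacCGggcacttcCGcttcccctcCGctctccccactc
Ranbp1 (chr16:18248695-18248754, minus strand): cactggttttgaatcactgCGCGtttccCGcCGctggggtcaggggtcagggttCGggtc
Eif2s3y (chrY:1010535-1010594, plus strand): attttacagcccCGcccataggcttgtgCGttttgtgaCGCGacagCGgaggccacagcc
Elf3 (chr1:135258473-135258532, minus strand): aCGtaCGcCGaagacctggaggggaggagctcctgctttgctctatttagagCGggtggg
Prr23a1 (chr9:98842527-98842586, plus strand): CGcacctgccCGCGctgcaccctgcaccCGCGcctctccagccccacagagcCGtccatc
Krt18 (chr15:102028156-102028215, plus strand): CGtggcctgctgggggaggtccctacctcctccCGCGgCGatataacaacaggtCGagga
Krt8 (chr15:102004343-102004402, minus strand): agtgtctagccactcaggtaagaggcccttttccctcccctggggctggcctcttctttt
Phlda2 (chr7:143502525-143502584, minus strand): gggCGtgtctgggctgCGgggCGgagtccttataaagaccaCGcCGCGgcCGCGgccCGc
The even genes had 5, 4 and 5 CG in this window, and Krt8 had none, but Phlda2 had 9 and Prr23a1 6, so single windows did not sort the classes. Over 300 bases (250 before and 50 after the start), the 23 of the 30 most even protein-coding genes that had a window held a median of 26 CG. The 25 of the 30 most uneven protein-coding genes with a window held 14, and 6068 expressed protein-coding genes held 22. Their median GC contents were 62.3%, 58.7% and 60.7%. The letters TATAAA, searched on the gene's strand from 40 to 16 bases before the start, occurred in none of the 23, in 1 of the 25 (Phlda2, at -30 from the inner start) and in 0.906% of the 6068, compared with 2.21% of all 27025 windows. Anywhere in the 300 bases of the same strand, they occurred in none of the 23, in 5 of the 25 (20%), in 3.89% of the 6068 and in 8.88% of all windows. Over the 150 most even and 150 most uneven protein-coding genes the values lay closer together, with TATAAA in 4.24% and 7.5% of the windows found and a median of 22.5 and 17 CG.

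The 12 short RNA genes among the 30 most uneven had exons of 45 to 122 bases, and short RNAs made up 0.922% of the 7595 genes. Small nucleolar RNAs guide the modification of ribosomal RNA, and most are cut from introns of genes for translation. Smart-seq2 primes from poly(A) tails, so mature forms are not expected to be captured well. The 3 small nucleolar RNA genes with the largest excess are shown from the genome (GRCm38.p6). The letters TGATGA and CTGA, the box C and box D sequences of 1 of the 2 families, are in capitals. A match marks these letters only, and Snora28 belongs to the other family.
Snord64 (chr7:59978811-59978856, minus strand): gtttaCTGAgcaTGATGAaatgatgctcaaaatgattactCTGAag
Snora28 (chr12:111540946-111541067, plus strand): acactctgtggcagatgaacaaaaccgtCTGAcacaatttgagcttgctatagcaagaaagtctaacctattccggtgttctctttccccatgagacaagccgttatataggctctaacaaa
Snord93 (chr5:23852233-23852277, plus strand): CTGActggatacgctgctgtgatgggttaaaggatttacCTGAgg
Snord64 ranged from 0 to 309 FPKM and passed 1 FPKM in 7 blastomeres, Snora28 from 0 to 145 FPKM in 12, and Snord93 from 0 to 110 FPKM in 8. At 46 bases a count of 0 for Snord64 allows up to 3.79 FPKM at the median depth, so its zeros are weaker bounds than those of longer genes. All 12 short RNA genes lay inside a host gene on the same strand, 10 in an intron and 2, Mir3113 in Huwe1 and Mir3064 in Ddx5, over an exon of the host. Their hosts were above 1 FPKM in at least 18 blastomeres, and the correlation of a short RNA gene with its host ranged from -0.07 for Snord64 with Snhg14 to 0.63 for Snord96a with Rack1.

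The microRNA genes of this set with a mature sequence in RefSeq are given with the seed, bases 2 to 8, in capitals, since the seed defines the targets of a microRNA.
mmu-miR-1956: aGUCCAGGgcugagucagcgga
mmu-miR-3064-5p: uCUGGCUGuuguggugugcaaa
mmu-miR-3064-3p: uGCCACACugcaacaccuuaca
mmu-miR-3113-3p: uCCUGGCCcugguccugguc
No seed was shared among them. Mir1956, in an intron of Eif4e, was above 1 FPKM in 17 blastomeres with a median of 46.4 FPKM and a highest value of 260 FPKM. Fragments of a precursor or of unspliced host RNA would be counted under the same names, and the values are not levels of mature microRNA.

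Genes that varied together were sought among the 150 most uneven. Over their 11175 pairs the median correlation was 0.04, 2.14% were above 0.6, and 145 were below -0.6. Average-linkage clustering at a correlation of 0.6 left 19 genes in 3 groups of at least 4. The grouping changed when single blastomeres were left out, given here in the numbering of the table's order: without b3 it gave 12 genes in 1 group, without b14 35 in 6, without b17 33 in 7, without b5 or b18 30 in 5, and without b8 29 in 5. The smaller groups below are therefore described for these 20 blastomeres as they stand.

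The group of 10 genes was Eif2s3y, Uba1y, Ddx3y, Tent5c, Erg28, Ethe1, Hexa, Rab18, Ly6a and Dpp7, with a median correlation of 0.73 (0.36 to 0.95). The 3 Y-linked genes were above 1 FPKM in the same 12 blastomeres and at 0 in the same 8, and Xist, the RNA that coats an inactive X chromosome, was above 1 FPKM in exactly those 8 (Eif2s3y with Xist, r = -0.91). The 20 blastomeres thus fell into 2 sets without overlap, and correlations were also taken within each. Inside the set of 12, Eif2s3y correlated at 0.12 with Uba1y and at 0.13 with Ddx3y, against 0.95 and 0.94 over all 20, but at 0.59 with Rab18, 0.40 with Erg28 and -0.40 with Tent5c. The median correlation of the group was 0.05 in the 12 (-0.56 to 0.69) and 0.10 in the 8, where 7 of the 10 genes varied. The autosomal member Tent5c, a poly(A) polymerase, was above 1 FPKM in 11 of the 12 and in none of the 8. Ly6a was above 1 FPKM in 12 and 7, Hexa, a lysosomal hexosaminidase, in 12 and 3, and Ethe1, a mitochondrial sulfur dioxygenase, in 12 and 3. The 6 left-out columns had Xist and no Y-linked transcript above 1 FPKM. There Ethe1 ranged from 0 to 111 FPKM, Ly6a from 0 to 102 FPKM and Hexa from 0 to 42.3 FPKM, while Tent5c was at 0. Blastomeres of an embryo share their sex, so embryo and sex cannot be told apart here.

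X-linked partners of these genes ran in the opposite direction. Eif2s3x, the X copy of Eif2s3y, ranged from 17.6 to 74.2 FPKM and correlated with it at -0.79 over all 20 blastomeres and at -0.16 within the 12. Uba1 and Uba1y had r = -0.79 over 20 and -0.09 within the 12. Ddx3x and Ddx3y had r = -0.51 over 20.

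The group of 5 comprised Khdc3, a member of the subcortical maternal complex, Fabp3, a fatty acid-binding protein, Commd1, a copper and endosome sorting protein, Naxe, an epimerase that repairs hydrated NAD(P)H, and the pseudogene 2210409E12Rik. Its median correlation was 0.68, with -0.05 within the 12 blastomeres and 0.64 within the 8. Khdc3 ranged from 5.92 to 872 FPKM (median 413), the widest fold range of the 4 maternal genes found in every blastomere, and correlated with Fabp3 at 0.79. The pseudogene ranged from 0 to 810 FPKM (median 264).

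The group of 4 held the X-linked genes Rhox9, 1700013H16Rik and Bex1 and the autosomal Klf10, a TGF-beta-induced zinc finger factor, with a median correlation of 0.67, and of 0.75 within the 8 blastomeres. Within the 12, the 2 members with any variation, Bex1 and Klf10, had r = 0.11. 1700013H16Rik passed 1 FPKM in the 8 blastomeres with Xist and in none of the other 12 (highest 55.9 FPKM), but in only 2 of the 6 left-out columns, all of which had Xist above 1 FPKM. In the 20 kept, its correlation with Eif2s3y was -0.96, the lowest of the 11175 pairs. With Xist it correlated at 0.82 over the 20 but at -0.77 within the 8. Rhox9, a reproductive homeobox gene, was above 1 FPKM in 5 of the 8 and in none of the 12, reaching 78.0 FPKM. Its correlation with Xist was 0.43 over the 20 and -0.79 within the 8. Bex1 was above 1 FPKM in 6 of the 8 and 3 of the 12. Genes on the X chromosome made up 12 of the 150 most uneven (8%) and 3.11% of the 7595.

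**Figure D5:**
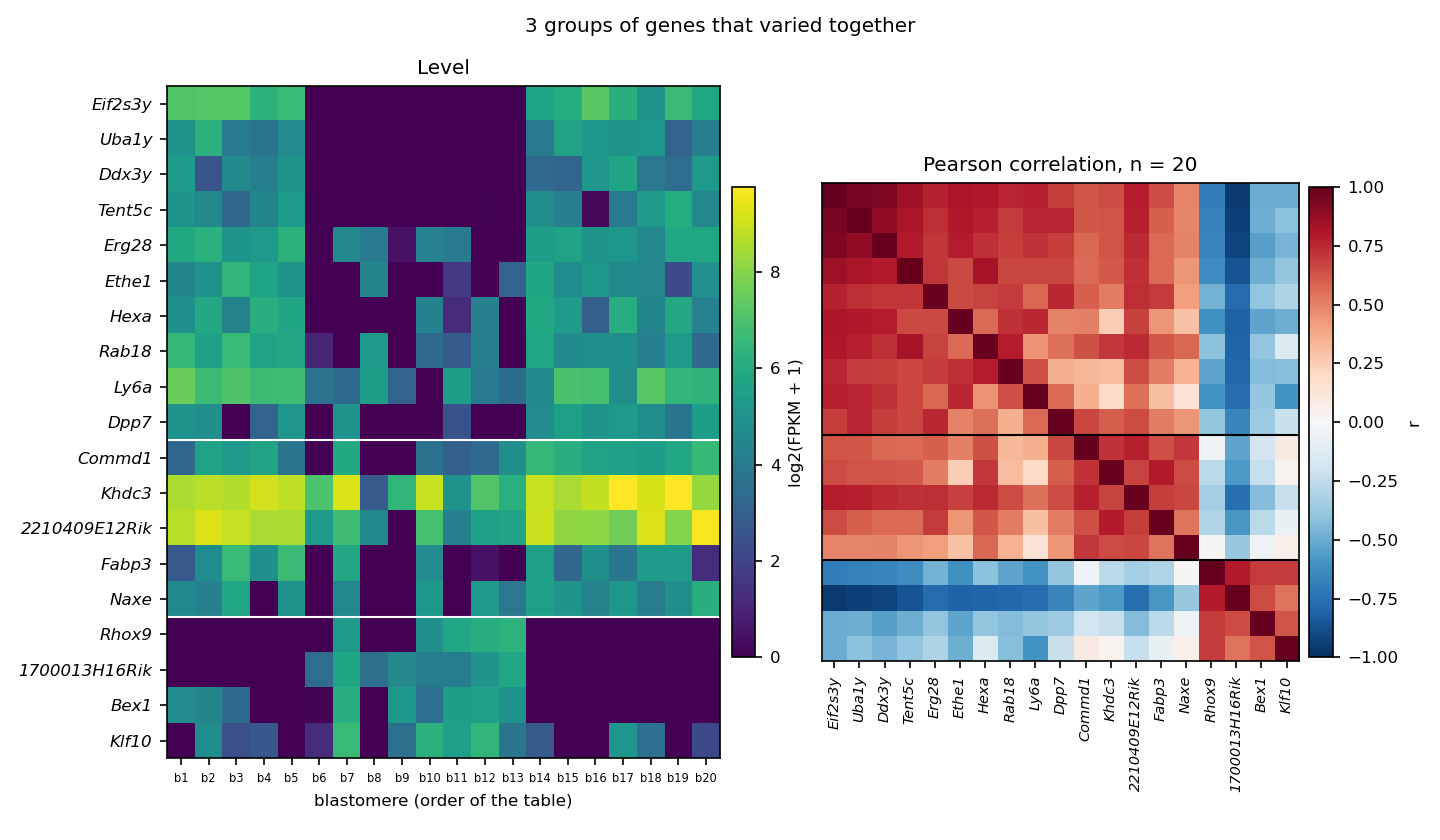
Left, log2(FPKM + 1) of the 19 genes in 3 groups, 1 row per gene and 1 column per blastomere. Right, their pairwise Pearson correlations over 20 blastomeres, in which Eif2s3y, the first gene of the first group, is opposed to 1700013H16Rik (r = -0.96).

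Pairs outside these groups were also taken within both sets of blastomeres. 1110059E24Rik and Gm20939 correlated at 0.91 over all 20, at 0.88 within the 12 and at 0.96 within the 8. Fxyd4 and Syngr2, a synaptic-like vesicle protein, had 0.80, 0.64 and 0.74. S100a10 and Idh2 had 0.76, 0.77 and 0.46. Krt8 and Krt18 had 0.38, 0.42 and 0.74. Krt18 and the tubulin Tuba3b had 0.70 overall and 0.48 and 0.37 within the sets. Tuba3a and Tuba3b, near-identical copies between which reads can be divided wrongly, had r = -0.22.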

How the data were processed

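Smart-seq2 libraries of single blastomeres were sequenced as read pairs by the authors, who aligned them to mm10 with STAR 2.5.1b, counted uniquely aligned reads over RefSeq genes with HTSeq-count and deposited FPKM values. The gene lengths and totals that entered the FPKM are not given in the sources used here. Depth was recovered from the steps between low values with RefSeq exon lengths (median 94.0% of values whole within 0.1 fragment in the 20 blastomeres kept), and is approximate. Of 15342 identifiers, 15320 matched RefSeq (GRCm38.p6). The 8-cell gene table has 26 columns. Since no column name matched a labelled sample, a pairing of columns with embryos or lineages was not possible, the stage counts as 1 sample, no test was run, and every spread is a spread over blastomeres. Named were the 30 genes of highest median, of lowest coefficient of variation (above 1 FPKM in every blastomere) and of largest excess variance (lowess fraction 0.3, pseudocount 1, mean log2 of at least 1). The 150 most uneven were clustered by Pearson correlation (average linkage, cut 0.6, groups of at least 4). Promoters are RefSeq windows of 250 bases before and 50 after the start. Python 3.11.15 with numpy 2.4.6, pandas 2.3.3, scipy 1.17.1 and statsmodels 0.14.6 was used, and the ranking and clustering were tested on simulated data. A few of the named genes are not reported here. Members and gene lists were chosen with earlier results of these data known. The alternatives were other thresholds for cells and genes, FPKM rescaled to the same sum, other pseudocounts, trends, correlations and cuts, and leaving out each blastomere.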

Additional observations from a re-analysis of the deposited data

How the results depend on the processing

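The values are limited by depth of 14449383 to 21738141 fragments per blastomere, by the lack of molecular identifiers, and by columns that could not be tied to embryos. No paired analysis was possible because no column name matched a labelled sample, and nothing was tested. Of 74 summary values under alternatives other than leave-one-out, 54 stayed within the set limits and 20 moved, as did 97 and 38 of 135 values of single genes. The cause was not tested unless named. Counts of named genes are those shared with the 30 named. With all 26 columns, 10 of the 30 most even genes were shared, 1749 genes were above 1 FPKM in every column. Requiring 6000 genes left 35 genes in 6 groups in place of 19 in 3, leaving out the columns named NA left 45 in 8, a cut of 0.5 left 55 in 9, a cut of 0.7 left 8 in 1, the 100 most uneven genes gave 10 in 1, and the 300 most uneven gave 56 in 9. A pseudocount of 0.1 left 6 short RNA genes among the 30 most uneven in place of 12, and a mean log2 of at least 3 left 5. Dividing the variance by the trend left 1 of the 30 uneven genes and 0 short RNA genes, since 27 of the 30 largest ratios came from genes whose trend lay below the floor of 0.001. Protein-coding genes only, an alternative chosen after seeing the data, kept 17 of the 30 and 0 short RNA genes by construction. Leaving out each blastomere in turn, 29 to 30 abundant, 25 to 29 even and 23 to 29 uneven genes were shared, 2929 to 3022 genes were above 1 FPKM in every blastomere, the share of the leading 30 was 9.86% to 9.95%, 9 to 12 short RNA genes stayed, and 12 to 35 genes fell into 1 to 7 groups, with 2 to 3 Y-linked genes in 1 group. The rank of Krt8 by excess variance ran from 18 to 55 in these runs. Eif2s3y kept rank 1 in all 20 of them and had rank 40 where the variance was divided by the trend.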

Other observations

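Genes of the X chromosome held 2.75% to 4.75% of the summed FPKM of the 20 blastomeres, with a median of 3.17%. The values fell into separate ranges. In the 12 blastomeres with Y-linked transcripts above 1 FPKM the share was 2.75%, 2.84%, 2.87%, 2.87%, 2.99%, 2.99%, 3.02%, 3.06%, 3.10%, 3.12%, 3.23% and 3.27%. In the 8 with Xist above 1 FPKM it was 4.21%, 4.22%, 4.23%, 4.37%, 4.399%, 4.64%, 4.71% and 4.75%. The 6 columns left out of the report all had Xist and no Y-linked transcript above 1 FPKM, and their shares were 4.27%, 4.68%, 4.74%, 4.98%, 5.14% and 5.31%. No test was made, and blastomeres of an embryo are not independent.

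Of 74 X-linked genes above 1 FPKM in every blastomere, 67 (90.5%) correlated negatively with Eif2s3y, with a median r of -0.50. Of 2853 genes on other chromosomes, 40.5% did, with a median r of 0.11. Eif2s3y was at 0 in 8 of the blastomeres, so these values mainly restate the difference between the ranges above, and within the 12 the X-linked share correlated with Eif2s3y at 0.33. The X-linked genes with the lowest r were Hmgb3 (-0.87), a chromatin protein, and Uba1 (-0.86), the main ubiquitin-activating enzyme.

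The 6 columns left out differed from the 20 in the levels of some abundant transcripts as well as in gene number. Dppa3 ranged there from 3720 to 10167 FPKM, above the highest of the 20 blastomeres, and Hprt from 1800 to 3454 FPKM, also above their highest. The summed FPKM was itself higher in the 6 (459131 to 520671, against 364937 to 463052). As a share of it, Dppa3 exceeded the highest of the 20 (0.912%) in 3 of the 6, and Hprt (0.374%) in all 6. Without the shallowest of the 6, with 2336462 fragments, the highest values were 4868 FPKM for Dppa3 and 2220 FPKM for Hprt. Ptma ranged from 631 to 1172 FPKM, overlapping the 20. Respiratory chain genes held 3.40% to 4.64% of the summed FPKM, against 2.14% to 3.51% in the 20. The fragment totals of the 6 ran from 2336462 to 18625530, and the part of depth or cell quality in these values was not tested.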
